A study of Homo sapiens with 6 samples.

Results

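Long intergenic noncoding RNA genes named LINC followed by a number were read from the probe sets of an Affymetrix expression array in MCF-10A cells with and without ectopic CRB3. The probe sets described here were chosen by their name in the platform annotation and by their mean log2 value over the 6 arrays, which had to be at least 6. Of 1084 probe sets annotated to a single LINC symbol, 148 reached this mean (13.7%), and they belong to 126 of 840 LINC genes. LINC01503 was also selected on its fall in these same arrays, so its difference is described without a test and is counted apart. The remaining 936 LINC probe sets had a lower mean and are described after the members. A further 28 LINC probe sets carry several gene symbols, 15 of them with a mean of at least 6, and were not counted as members.

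MCF-10A is an immortalized, non-transformed line of human mammary epithelial cells. Both groups were infected with a retrovirus, kept in the usual growth medium of the line and selected with puromycin. The methods of the study do not say whether infected cells were kept as a population. No clone is named in the sources used here. The virus carried human CRB3, with a myc tag at its amino terminus in the methods of the study, or only the empty vector. CRB3 is a small transmembrane protein of the apical Crumbs polarity complex. Total RNA was isolated from growing monolayers at 70% confluence, with 3 arrays of CRB3-expressing cells and 3 arrays of vector control cells. Whether the triplicates go back to separate infections is not given in the sources used here. The p-values then measure the spread among these samples alone, and it may be technical.

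Long intergenic noncoding RNAs are transcripts without a recognised protein-coding frame whose genes lie between protein-coding genes. Most are transcribed by RNA polymerase II, and many are capped, spliced and polyadenylated like messenger RNA but kept at lower levels and retained in the nucleus. Some act on the chromatin or transcription of nearby genes, others bind proteins or small RNAs, and most have no assigned function. A symbol of the LINC type is a place holder that says where a gene lies and not what its transcript does.

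RefSeq promoter windows, which run from 250 bases before to 50 bases after the annotated start (GRCh38.p14), were matched by gene identifier for 98 of the 126 member genes. Shown here are the windows of LINC00460, the tested member that passed both thresholds, of LINC00857 and LINC01315, the members that rose at the adjusted p alone, and of LINC01133, which fell just short of the signal threshold and rose. LINC01503 and LINC01279 are not in the promoter table. Capitals mark matches on either strand to the TATA box (TATAAA), the GC box (GGGCGG), the CCAAT box, the AP-1-type element (TGANTCA) and the E-box (CACGTG). Matches to the GC box can overlap each other. The windows are chr13:106376314-106376613 on the plus strand for LINC00460, chr10:80207460-80207759 on the plus strand for LINC00857, chr22:42369159-42369458 on the minus strand for LINC01315 and chr1:159960974-159961273 on the plus strand for LINC01133.
LINC00460: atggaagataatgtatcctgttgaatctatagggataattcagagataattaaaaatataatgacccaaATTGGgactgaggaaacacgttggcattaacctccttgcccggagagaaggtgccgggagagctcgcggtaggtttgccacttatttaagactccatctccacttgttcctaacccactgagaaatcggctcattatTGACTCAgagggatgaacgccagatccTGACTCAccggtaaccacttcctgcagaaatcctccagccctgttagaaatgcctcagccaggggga
LINC00857: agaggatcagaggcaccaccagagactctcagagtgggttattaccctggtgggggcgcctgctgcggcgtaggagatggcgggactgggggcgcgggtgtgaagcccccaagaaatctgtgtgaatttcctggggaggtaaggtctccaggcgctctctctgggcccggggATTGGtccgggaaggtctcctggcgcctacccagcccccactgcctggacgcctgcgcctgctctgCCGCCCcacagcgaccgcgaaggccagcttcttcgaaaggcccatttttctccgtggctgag
LINC01315: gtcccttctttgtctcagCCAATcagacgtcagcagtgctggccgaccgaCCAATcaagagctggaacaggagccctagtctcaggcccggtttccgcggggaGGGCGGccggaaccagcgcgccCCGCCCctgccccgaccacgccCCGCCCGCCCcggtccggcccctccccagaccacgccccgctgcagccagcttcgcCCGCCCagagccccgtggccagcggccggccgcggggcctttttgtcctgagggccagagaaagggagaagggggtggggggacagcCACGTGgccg
LINC01133: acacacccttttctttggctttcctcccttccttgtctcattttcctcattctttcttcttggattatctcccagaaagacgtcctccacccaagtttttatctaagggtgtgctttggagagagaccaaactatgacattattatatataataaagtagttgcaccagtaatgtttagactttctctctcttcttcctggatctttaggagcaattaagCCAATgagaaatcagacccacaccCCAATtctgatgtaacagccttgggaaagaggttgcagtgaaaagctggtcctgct

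The LINC00460 window held 8 CG pairs and the AP-1-type element at positions -44 and -17 from the start. The LINC01315 window held 28 CG pairs and 5 matches to GGGCGG, and the LINC01133 window held 1 CG pair and no GGGCGG. The LINC00857 window lay between them with 18 CG pairs. Across the 98 member promoters, TGANTCA was found in 10 (10.2%), against 7.76% of all 27305 promoters of the table. CACGTG was found in 12.2% of member promoters and 7.43% of all promoters, CCAAT in 44.9% and 35.7%, GGGCGG in 42.9% and 44.6%, and TATAAA in 10.2% and 12%. The median promoter of a member held 11 CG pairs, against 14 over all promoters. These matches describe letters in a window and were not tested as sites.

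The array data were 1 log2 value per probe set, after the authors' Robust Multichip Average (RMA) normalization. All differences are log2 values of CRB3-expressing minus vector control cells from limma, a linear model fitted to 54613 probe sets. A call needed both thresholds of the study, more than a 1.5-fold difference and a Benjamini-Hochberg adjusted p under 0.05. The array medians lay between 5.84 and 5.88, and Pearson's r between arrays of a group was 0.997 to 0.998 over all probe sets. The CRB3 probe set read 12.16, 12.00 and 12.19 in CRB3-expressing cells and 7.90, 7.59 and 7.85 in vector control cells, a 20.1-fold difference (log2 fold change 4.33, SE 0.095, limma adjusted p = 1.83e-07). The 7 mammary epithelial markers with a probe set had means between 9.97 and 13.60. KRT14 and CDH1 among them were called higher, by 1.83 and 1.10 on the log2 scale. Of 7 fibroblast markers, DCN alone was called, with a difference of -0.76, while the list had a median of 5.53 with CRB3 and 5.63 with the vector. The endothelial list had medians of 5.34 and 5.28, and the leukocyte list 5.78 and 5.76. The part of these markers in the LINC results was not tested.

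The deposited values carry no detection calls. Of the markers of cell types that this line should lack, 2 of 7 fibroblast, 2 of 5 endothelial and 2 of 4 leukocyte genes also had a mean of at least 6. A mean of 6 is therefore not by itself a sign of expression, and the members are described as probe sets above a signal level. Most members lay close to it. Their median mean was 6.65, against 8.12 for the other probe sets above 6, with 98 members between 6 and 7, 30 between 7 and 8, and 20 at 8 or more.

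Few LINC probe sets were called different between CRB3-expressing and vector control cells. With LINC01503 set apart, 0 of the other 147 members were called higher and 1 was called lower, LINC00460 (0.68%). Among all 26207 probe sets with a mean of at least 6, 1.66% were called higher and 0.637% lower, and among all 54613 probe sets 0.948% were called higher and 0.363% lower. The share of members called lower was near that background. At the adjusted p alone, 2 of the 147 were higher (LINC00857 and LINC01315, 1.36%) and 1 was lower (0.68%), against 3.92% and 2.5% of the probe sets above 6. At an unadjusted p under 0.05 from limma, 20 of the 147 were higher (13.6%) and 9 were lower (6.12%), against 10.8% and 12.6% of the probe sets above 6.

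LINC01503 has been described in squamous cell carcinomas, where the basal factor p63 binds its enhancer. Its probe set read 7.95, 8.05 and 7.92 in CRB3-expressing cells and 9.10, 9.28 and 9.12 in vector control cells. The groups did not overlap, and the means were 7.97 ± 0.067 (SD, n = 3) and 9.17 ± 0.10 (SD, n = 3). The log2 fold change was -1.19 (SE 0.074, 95% interval -1.36 to -1.02), a 2.28-fold lower level. This transcript was named in the selection for its fall, so these values are a description. In RNA of whole cultures, fewer cells with a transcript and less of it in each cell cannot be told apart.

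LINC00460, a transcript reported to be raised in several carcinomas, was lower in CRB3-expressing cells. Its probe set read 7.98, 7.89 and 7.88 in these cells and 8.41, 8.55 and 8.58 in vector control cells. Every CRB3-expressing array lay below every vector control array. The log2 fold change was -0.60 (SE 0.07, 95% interval -0.76 to -0.44, limma adjusted p = 0.00161), a 1.51-fold difference that sits just past the 1.5-fold threshold. Leaving out CRB3-expressing replicate 2 or 3, or vector control replicate 2 or 3, moved it to between -0.58 and -0.56 and ended the call on fold change, with an adjusted p between 0.00935 and 0.0113. A second LINC00460 probe set with a mean of 4.90 had a log2 fold change of -0.082 (95% interval -0.28 to 0.12), so the fall was read by 1 of its 2 probe sets.

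**Figure D1:**
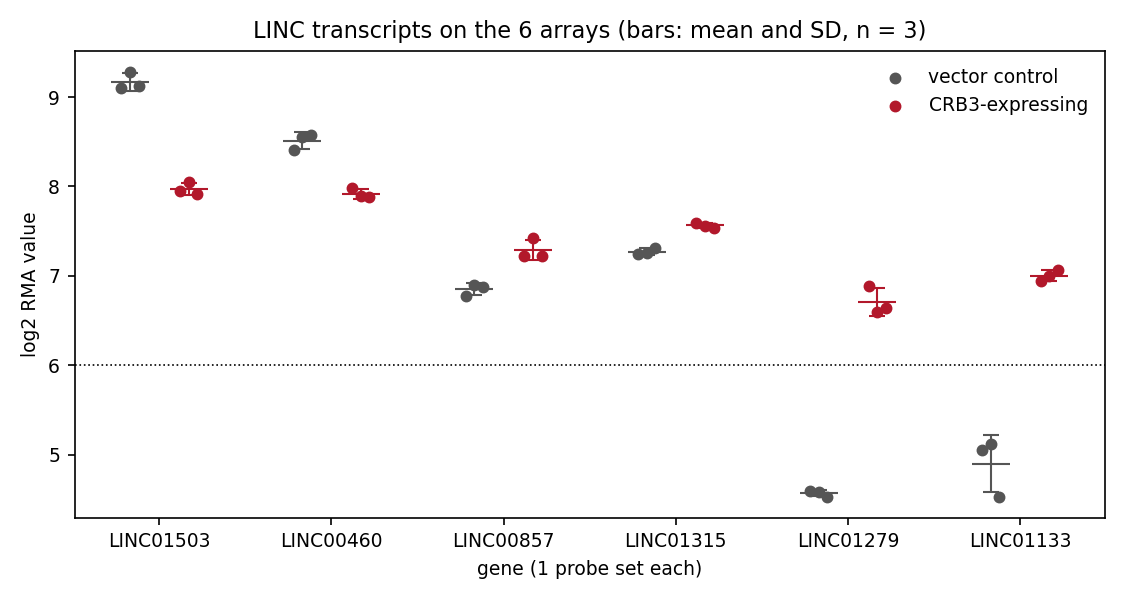
Log2 RMA values (vertical axis) of 6 LINC probe sets in vector control cells (grey, 3 arrays) and CRB3-expressing cells (red, 3 arrays), with bars for the mean and SD and a dotted line at 6. In each of these probe sets the groups do not overlap, and LINC01279 and LINC01133 lie below 6 in every vector control array.

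LINC00857, reported to be raised in lung adenocarcinoma, was higher in CRB3-expressing cells at the adjusted p but under the fold threshold. It read 7.22, 7.42 and 7.22 in CRB3-expressing cells and 6.77, 6.90 and 6.88 in vector control cells. The groups did not overlap. The log2 fold change was 0.43 (SE 0.078, 95% interval 0.26 to 0.61, limma adjusted p = 0.0174), a 1.35-fold difference. The adjusted p rose above 0.05 without CRB3-expressing replicate 2 (0.0566), without vector control replicate 1 (0.0678) and with ordinary pooled variance (0.133). LINC01315 read 7.59, 7.56 and 7.54 in CRB3-expressing cells and 7.24, 7.26 and 7.31 in vector control cells, with little spread in either group. Its log2 fold change was 0.29 (SE 0.06, 95% interval 0.16 to 0.43, limma adjusted p = 0.0306), a 1.23-fold difference. Its adjusted p from limma rose above 0.05 when any 1 of the 6 arrays was left out, with values from 0.0642 to 0.113. It also did so with the replicate number as a block (limma adjusted p = 0.0897).

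The other members lay close to 0. The log2 fold changes of all 148 ran from -1.19 to 0.43 with a median of 0.02 and quartiles of -0.046 and 0.094. The median over all probe sets was 0.0012, and over the other probe sets above 6 it was -0.012, with quartiles of -0.10 and 0.076. The median size of the difference was 0.068 among members and 0.09 among the other probe sets above 6. This order did not hold at signals of 8 or more, as given below. Among members, 88 differences were positive and 60 negative. The groups did not overlap for 23 members that were higher (15.5%) and 11 that were lower (7.43%, LINC01503 among them), against 15.1% and 16.6% of all probe sets above 6.

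For most members the interval of the difference in array signal was narrow. With 98 members between 6 and 7, where signal alone is not a sign of expression, this does not bound the change of the transcripts. For 144 of the 148 members (97.3%) the 95% interval lay inside a 1.5-fold change in either direction, against 94.3% of the other probe sets above 6. The exceptions were LINC01503, LINC00460, LINC00857 and LINC01296. The median SE was 0.076 for members and 0.072 for the other probe sets. By signal, the 98 members between 6 and 7 had a median difference of 0.015 and a median size of 0.06, with 0 called. The other probe sets at that signal had a median size of 0.083. The 30 members between 7 and 8 had a median size of 0.064, again with 0 called, against 0.10 for the other probe sets. The 20 members at 8 or more had a median size of 0.17, against 0.09 for the other probe sets, so the order was reversed there. These 20 held LINC00460, the tested member that was called, and LINC01503.

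**Figure D2:**
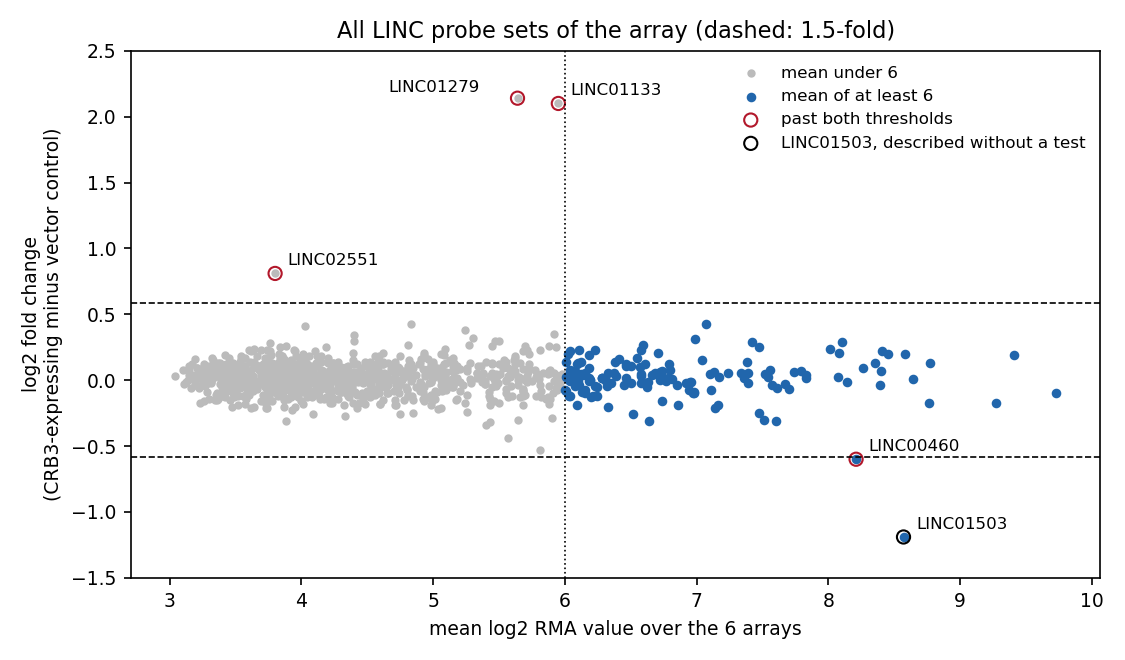
Mean log2 RMA value over the 6 arrays (horizontal axis) against the log2 difference of CRB3-expressing from vector control cells (vertical axis), for the 148 LINC probe sets with a mean of at least 6 (blue) and the 936 with a lower mean (grey). Red rings mark probe sets past both thresholds and the black ring marks LINC01503. LINC00460 lies at the 1.5-fold line, while LINC01279 and LINC01133 lie above 2 to the left of the threshold.

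Next in the order of rises came LINC02482, LINC00294, LINC00205, LINC03011, LINC01003 and LINC03040, at 0.23 to 0.31 on the log2 scale, and the test was not passed by any of them. LINC00294 read 8.20, 8.35 and 8.17 in CRB3-expressing cells and 7.92, 7.95 and 7.99 in vector control cells. Its groups did not overlap, and its adjusted p was 0.0581 from limma (log2 fold change 0.29, 95% interval 0.14 to 0.45). LINC02482 had probe sets at 0.31 and 0.23, with adjusted p-values of 0.13 and 0.456. LINC00205 had member probe sets at 0.27 and -0.046, and LINC03040 at 0.23 and -0.088.

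At the other end lay LINC02256, LINC01296, LINC02035, LINC00963, LINC01963 and LINC01000, with log2 fold changes between -0.31 and -0.21 and none past the test. The LINC01000 value is that of its dimmer member probe set, with overlapping groups, while its brighter one had -0.17. LINC01296 read 7.52, 7.34 and 7.48 in CRB3-expressing cells and 8.14, 7.65 and 7.48 in vector control cells. Only its first vector control array stood clear of the others, and the 95% interval of its difference ran from -0.65 to 0.03. RefSeq holds LINC01296 as an older symbol of DUXAP9, a transcribed pseudogene, so this member is not a long intergenic noncoding RNA there. LINC02256 had a log2 fold change of -0.31 (limma adjusted p = 0.12) and LINC02035 of -0.30 (limma adjusted p = 0.19).

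**Figure D3:**
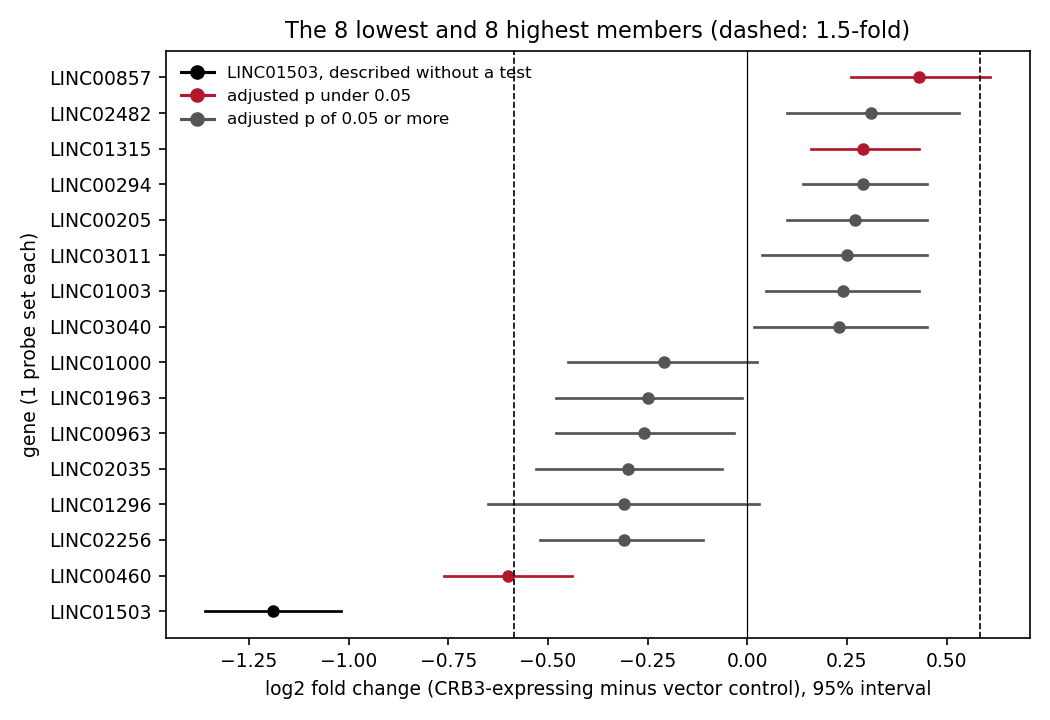
Log2 difference of CRB3-expressing from vector control cells with its 95% interval (horizontal axis) for the 8 member probe sets with the lowest and the 8 with the highest values, 1 per line. LINC00460, LINC01315 and LINC00857 are the tested members with an adjusted p under 0.05 (red), and LINC01503 (black) is described without a test.

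The 6 members with the highest signal had log2 fold changes between -0.17 and 0.19, and none of them was called. Signals of different probe sets are not levels that can be set against each other, so only differences are compared. LINC00623 had a log2 fold change of -0.10, from 9.68 ± 0.09 (SD, n = 3) in CRB3-expressing cells to 9.78 ± 0.091 (SD, n = 3) in vector control cells. LINC02381, which lies beside the homeobox gene HOXC4, read 9.50, 9.52 and 9.51 in CRB3-expressing cells and 9.27, 9.35 and 9.33 in vector control cells. Its arrays did not overlap, yet the difference of 0.19 did not pass the test (95% interval 0.054 to 0.32, limma adjusted p = 0.147). LINC00621, LINC00662, LINC01000 (its brighter probe set) and LINC00674 had differences of -0.17, 0.13, -0.17 and 0.0059. The groups did not overlap for LINC00621, LINC00662 and LINC01000 either (limma adjusted p = 0.24, 0.346 and 0.297). The probe sets of LINC00623, LINC00621 and LINC01000 end in _x_at, the array maker's mark for probes that can hybridize to other transcripts, as do 10 members in all, and another 15 end in _s_at, for probes shared by several transcripts.

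Genes read by more than 1 member probe set numbered 19, and their probe sets did not always move alike. LINC00467 had a log2 fold change of 0.20 in both of its member probe sets (limma adjusted p = 0.168 and 0.166). LINC00674 had -0.10, -0.014 and 0.0059 in its members. LINC01128 had 0.22, -0.20, -0.076 and 0.11, so that its member probe sets lay on both sides of 0. LINC01134, LINC00537 and LINC02693 had differences between -0.065 and 0.062 in each of their member probe sets. Among probe sets with a mean under 6, however, LINC00537 had -0.26 (95% interval -0.50 to -0.016) and LINC02693 had -0.34 and 0.11.

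Within groups, members varied slightly more than the other probe sets above 6, whose median signal was higher (8.12 against 6.65). This comparison was not matched on signal. The pooled SD of a member had a median of 0.093 and ran from 0.026 to 0.30, against a median of 0.081 for the other probe sets above 6. The widest was LINC02591, which read 7.47, 7.52 and 6.78 in vector control cells and 7.09, 7.01 and 7.10 in CRB3-expressing cells. CRB3-expressing replicate 2 held the highest value of 38 members, and vector control replicate 1 held the lowest value of 37. The median deviation of the members on an array lay between -0.036 and 0.025. Their part in the results was not tested, and the calls without each array are given with the processing. Pearson's r over the members was 0.976 to 0.987 within groups and 0.961 to 0.974 between them.

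At the edge of the signal threshold, the members just inside were LINC01366, LINC00841 and LINC01193, with means of at most 6.01 and log2 fold changes of -0.071, 0.14 and -0.079. Just outside were LINC00479, LINC00661 and LINC00938, each with a mean of 5.98 and log2 fold changes of 0.034, 0.05 and 0.0024. For 9 members, 1 of the groups had a mean under 6.

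Among the 936 LINC probe sets with a mean under 6, 3 were called higher (0.321%) and 0 lower, against 0.292% and 0.109% of all probe sets under 6. At an unadjusted p under 0.05 from limma, 48 of them were higher (5.13%) and 25 were lower (2.67%), against 5.67% and 4.07% of all probe sets under 6. Their median difference was 0.016. The 3 calls were LINC01279, LINC01133 and LINC02551. The larger rises, of LINC01279 and LINC01133, exceeded that of every member in size, and both probe sets missed the mean of 6 through their low vector control values.

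LINC01133, reported to bind the splicing factor SRSF6 in colorectal cancer, read between 6.94 and 7.06 in CRB3-expressing cells and 5.05, 5.12 and 4.53 in vector control cells. The groups were far apart, although vector control replicate 3 lay below the other controls. The log2 fold change was 2.10 (SE 0.14, 95% interval 1.78 to 2.41, limma adjusted p = 5.58e-05), a 4.28-fold rise. Its other probe set, with a mean of 3.72, had a log2 fold change of -0.055.

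The probe set annotated to LINC01279 read 6.89, 6.60 and 6.64 in CRB3-expressing cells and 4.59, 4.58 and 4.53 in vector control cells, a 4.42-fold rise (log2 fold change 2.14, SE 0.085, limma adjusted p = 2.2e-06). RefSeq holds LINC01279 as an older symbol of CCDC80, a protein-coding gene for a secreted matrix protein. The 3 probe sets annotated to CCDC80 were called higher as well, with log2 fold changes of 2.42, 0.99 and 0.76 (limma adjusted p = 3.37e-07, 0.000213 and 0.00883). This rise is therefore not counted here as that of a separate noncoding gene. CCDC80 was looked up after the values of LINC01279 were seen.

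LINC02551 read 4.51, 4.01 and 4.11 in CRB3-expressing cells and 3.44, 3.30 and 3.47 in vector control cells, low signals in both groups. The log2 fold change was 0.81 (SE 0.12, limma adjusted p = 0.00715). Its brighter probe set is a member and had a log2 fold change of 0.16 (95% interval -0.033 to 0.36), with overlapping groups.

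Because some of these RNAs act on nearby genes, the nearest protein-coding gene on each side of a member gene was read from the RefSeq gene order. Nearness was taken between gene midpoints, so a long gene with a closer edge can be passed over. Of 240 such neighbours of 125 placed member genes, 190 had a probe set and 139 had a mean of at least 6. Of these 139, 1 was called higher (0.719%) and 0 were called lower, against 2.1% and 0.683% of all 12307 genes above 6, each taken by its brightest probe set. At the adjusted p alone, 9 were higher (6.47%) and 1 was lower (0.719%), against 4.84% and 2.62% of those genes. Their median log2 fold change was -0.013.

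Neighbours of the members that moved were not called. ANXA11, an annexin beside LINC00857, read 11.87, 11.85 and 11.82 in CRB3-expressing cells and 11.40, 11.38 and 11.41 in vector control cells. This difference passed the adjusted p but not the fold threshold (log2 fold change 0.45, SE 0.058, limma adjusted p = 0.00293), and MAT1A on the other side had 0.079. EFNB2, the ephrin-B2 ligand gene beside LINC00460, had a log2 fold change of -0.24 (SE 0.059, limma adjusted p = 0.0675). IER5L beside LINC01503 had -0.028, with a 95% interval from -0.17 to 0.12. TCF20 and NFAM1 beside LINC01315 had -0.10 and 0.049, and PIGM beside LINC01133 and SLAMF9, whose annotated span overlaps it, had 0.12 and 0.073. Over 144 pairs of a member gene and a neighbour, Pearson's r of the differences was 0.11, and 0.13 over the 143 pairs without LINC01503. The pairs share the same arrays and some share a gene, so this is a description.

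**Figure D4:**
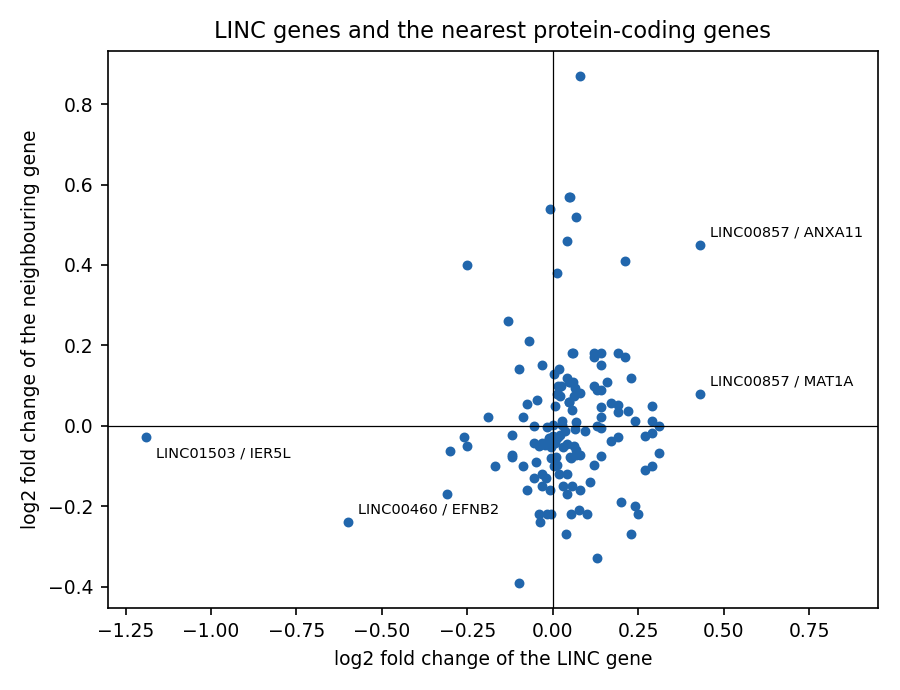
Log2 fold change of a LINC gene (horizontal axis) against that of its nearest protein-coding gene on either side (vertical axis), both as CRB3-expressing minus vector control cells, for the 144 pairs with a mean of at least 6. Most pairs lie near the origin, and the pair of LINC01503 and IER5L lies far to the left near 0 on the vertical axis.

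Long noncoding RNAs outside the LINC naming were read from a list of 63 genes, of which 41 had a probe set and 24 had a mean of at least 6. Among the 24, TUG1 (log2 fold change 0.085) is listed as protein coding in the RefSeq table. None of the 24 was called by limma, with 0 higher and 0 lower, against 2.1% and 0.683% of all genes above 6. At an unadjusted p under 0.05, 1 was higher and 3 were lower, against 12.7% and 11.4% of those genes, and the median log2 fold change was -0.036. EPB41L4A-AS1, the antisense partner of EPB41L4A, had a log2 fold change of -0.29 in both of its probe sets (limma adjusted p = 0.0478 and 0.129). SNHG4, a host gene of small nucleolar RNAs, had -0.28 (limma adjusted p = 0.0933), and MIR205HG, the host gene of miR-205, had -0.19 (limma adjusted p = 0.256).

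MALAT1, an abundant nuclear RNA, has 12 probe sets, and the one with the highest mean read 10.17, 9.98 and 10.32 in CRB3-expressing cells and 11.30, 8.92 and 8.95 in vector control cells. In this probe set the first vector control array stood above every other array and the other controls stood below them, and vector control replicate 1 was the highest array in 6 of the 12. The log2 fold change was 0.43 (limma adjusted p = 0.76), and this probe set was called higher without vector control replicate 1.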

How the data were processed

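Total RNA of 3 CRB3-expressing and 3 vector control MCF-10A samples was hybridized to Affymetrix Human Genome U133 Plus 2.0 arrays. Background correction and normalization by Robust Multichip Average were done by the authors on all arrays together. Their deposited log2 values, 1 for each probe set on each array, were used without further scaling. Versions of the authors' tools are not given in the sources used here. RMA draws dim values together, so that a change at low signal can be understated. Precision is limited by the number of arrays.

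Groups were taken from the sample labels. The lmFit and eBayes functions of limma 3.58.1 (R 4.3.3) were run on 54613 probe sets, leaving out the 62 array controls, and p-values were adjusted over the whole table by Benjamini-Hochberg. Intervals are at 95%. Gene names came from the platform annotation, in which 41091 probe sets have 1 symbol, 1801 have several and 11721 have none. Identifiers were matched to a RefSeq gene table of GRCh38.p14, where 147 of the 148 member probe sets were listed as lncRNA. Where genes were counted, the probe set with the highest mean stood for a gene.

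The members, the lists and the rule for named genes were chosen with earlier results of these data known. The rule named LINC01503, members past either threshold of significance, the 6 highest and 6 lowest other members, the 6 with the highest signal, genes with several probe sets, the 3 probe sets on each side of the signal threshold, and neighbours or other noncoding RNAs that were called. Probe sets with a lower mean, unchanged neighbours and members with a wide spread were named after their values were seen. Alternatives were a replicate block, other variance priors, array weights, median-centring, quantile normalization, a fit on probe sets above 6, other fold thresholds, treat, leaving out each array, and other member rules. The fit was tested on simulated data. The neighbour gene that was called is counted but not reported by name here.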

Additional observations from a re-analysis of the deposited data

How the results depend on the processing

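Of 275 values recomputed under the alternatives, 243 kept their direction and their side of the threshold, or for a count stayed within 1.5 times, and 0 changed sign. The side of the threshold was the call on both thresholds together. LINC00857 and LINC01315 stayed under the fold threshold, so they counted as kept even where their adjusted p rose above 0.05. These totals include values of LINC01503, which is left out of the next count. The tested members called lower, 1 (LINC00460), became 0 with a 2-fold threshold or treat and ranged from 0 to 1 when 1 array was left out. The members called higher, 0, became 2 without a fold threshold, and 2 with a mean of at least 5, which adds LINC01133 and LINC01279. The adjusted p of LINC00460 ran from 0.000109 (trend and robust prior) to 1 (treat). LINC01279 and LINC01133 were called in all 15 alternatives run for them, and LINC02551 in 12, so that LINC probe sets under 6 called higher fell from 3 to 2 with a 2-fold threshold, treat or ordinary pooled variance. LINC probe sets under 6 called lower, 0, became 2 without a fold threshold, both of LINC02806, and ranged from 0 to 1 when 1 array was left out. Other long noncoding RNAs called higher, 0, ranged from 0 to 1 when 1 array was left out (MALAT1 without vector control replicate 1), and those called lower became 1 without a fold threshold (EPB41L4A-AS1). Neighbours called higher, 1, became 0 with a 2-fold threshold or treat, 9 without a fold threshold and 2 after quantile normalization, and ranged from 1 to 3 when 1 array was left out. Neighbours called lower, 0, became 1 without a fold threshold. The causes were not tested, apart from the changes of threshold themselves. The fit on probe sets above 6 holds no value for dimmer ones.

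With the replicate block, LINC00460 stood at -0.60 on the log2 scale (limma adjusted p = 0.00995). Of the 147 tested members, 1 was then called lower and 0 higher. Deviations of same-numbered arrays correlated at -0.0848, 0.0638 and 0.0292, so the numbers were not taken to pair the samples.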
